A study of Mus musculus with 4 samples.

Results

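Toll-like receptors and the co-receptor CD14 are the sensors by which leukocytes detect microbial lipids and nucleic acids. The 10 members described here are Tlr1, Tlr2, Tlr3, Tlr4, Tlr6, Tlr7, Tlr8, Tlr9, Tlr13 and Cd14, chosen by gene symbol out of the 32285 genes in the count matrices, and all 10 were present in each matrix. The data are 5′ single-cell RNA counts of CD45+ cells sorted from mouse liver, from 4 libraries with 1 library per group, so there are no replicates and no test between groups was possible. All mice were female C57BL/6, and the number of mice pooled into each library is not stated.

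The young WT library came from untreated wild-type mice of about 8 weeks. The other 3 libraries came from mice injected with diethylnitrosamine (DEN), a liver carcinogen, at 25 mg/kg on day 14 of life and weaned on day 21 onto a choline-deficient diet with 60% fat (CDHFD). Their age is 36 weeks by the library labels but 35 weeks in a figure legend of the study. The study's methods give a range that includes both, so the age is not exact here. These 3 were wild type (treated WT), miR-146a-/-, and miR-146a-/- Ccl5-/- (double knockout). Young and treated WT therefore differ in age, carcinogen and diet at once, and these cannot be told apart. Ccl5 itself was at 6174, 12544, 12496 and 65.4 CPM in the young WT, treated WT, miR-146a-/- and double-knockout libraries, low in the 1 library whose label carries the Ccl5 deletion. No gene in the matrices stands for miR-146a.

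As background, TLR4 with its partner MD-2 senses lipopolysaccharide that CD14 hands over, and TLR2 pairs with TLR1 or TLR6 to sense bacterial lipopeptides; these act at the cell surface. TLR3, TLR7, TLR8, TLR9 and TLR13 sit in endosomes and sense nucleic acids, after the transporter UNC93B1 has carried them there. Most of them signal through the adaptor MyD88, IRAK kinases and TRAF6 to NF-κB, and miR-146a is a brake that NF-κB induces and that represses the messages of IRAK1 and TRAF6. In the liver, which receives microbial products from the gut by the portal vein, monocytes, Kupffer cells and dendritic cells are the best known carriers of these receptors.

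The libraries held 10985, 9120, 8393 and 10623 cells with 90756272, 103165826, 88706063 and 103147246 UMIs (unique molecular identifiers, the counted molecules). After limits on features and mitochondrial share, 10283, 8329, 7824 and 9850 cells were kept, with median depths of 6782, 8210, 7910 and 7558 UMIs per cell. The 10 members together had 5570, 12070, 13428 and 20269 UMIs in the kept cells. At least 1 of these UMIs was found in 20.01%, 32.3%, 36.4% and 43.6% of kept cells, lowest in young WT and highest in the double knockout. Pairs of libraries shared between 109 and 150 cell barcodes. Here and below, values in sets of 4 stand in the order young WT, treated WT, miR-146a-/- and double knockout.

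Cells were sorted into classes by marker genes, none of them a member. A level is the summed UMIs of a gene in a class and library as a share of all UMIs of that class and library, in counts per 1e6 UMIs (CPM), with an exact Poisson 95% interval that covers counting error only. Levels are compared within a gene, since they are not scaled to gene length. The classical monocyte class (Vcan, F13a1, Chil3, Fn1, Ly6c2, Ccr2) held 56, 166, 291 and 401 cells. The patrolling monocyte class (Ace, Treml4, Cd300e, Adgre4, Eno3) held 67, 93, 573 and 1045 cells, or 0.652%, 1.12%, 7.32% and 10.6% of kept cells. C1q macrophages were 21, 72, 55 and 104 cells, type 1 conventional dendritic cells (cDC1) 183, 97, 113 and 129, plasmacytoid dendritic cells (pDC) 76, 41, 77 and 65, and B cells 1178, 617, 369 and 606. T cells of all kinds numbered 4990, 3354, 3454 and 3195. A group led by Negr1, which was given no cell type name, had 5, 2, 31 and 293 cells, so most of its cells came from the double knockout.

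miR-146a-5p, the microRNA deleted in 2 of the 4 groups, is shown first because its seed (bases 2 to 8, in capitals) sets which messages of the pathway carry a match. The mature sequence is from RefSeq, build GRCm38.p6, minus strand, chr11:43374435-43374456.
mmu-miR-146a-5p: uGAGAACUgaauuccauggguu

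The match to this seed, AGTTCTC, was searched in the longest annotated 3′ UTR of each coding gene. It was found in 0 of the 10 members, in 5 of the 29 other pathway genes listed for this work, and in 11.2% of 21011 genes. The member 3′ UTRs are from 58 bases (Tlr8) to 1496 bases (Tlr3) long, against a median of 961 bases over all genes, so several are short windows. The 5 pathway genes were Traf6 with 4 matches, Irak1, Irak2 and Tirap with 2 each, and Tollip with 1. Their 3′ UTRs are from 1246 bases (Irak2) to 4170 bases (Traf6) long, all above that median. A match is a run of letters and not a measured site. The sites of 3 of these genes, which act directly below the receptors, are printed with the match in capitals (GRCm38): Irak1 lies on the minus strand at chrX:74015393-74015415 and chrX:74015377-74015399, Irak2 on the plus strand at chr6:113694118-113694140 and chr6:113694251-113694273, and the first 2 of Traf6 on the plus strand at chr2:101697944-101697966 and chr2:101698008-101698030.
Irak1 first: agactcagaggtcaaAGTTCTCa
Irak1 second: gttctcatgcttggaAGTTCTCa
Irak2 first: gcccccaaacctcttAGTTCTCc
Irak2 second: gccggtgtctccgcaAGTTCTCa
Traf6 first: accgctctggtgttgAGTTCTCa
Traf6 second: tccctggaaggcttaAGTTCTCa

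Across classes of at least 50 cells, 4 of the 10 members had the same highest class in all 4 libraries. These were Cd14 and Tlr2 in classical monocytes, Tlr13 in patrolling monocytes and Tlr3 in cDC1. For Tlr3, Tlr13 and Cd14 the interval of the highest class did not overlap that of the next class in any library. With no UMI of another compartment's markers allowed, Tlr3 and Tlr13 kept theirs, while young WT had 40 classical monocytes, under the minimum, so Cd14 and Tlr2 were not tested. With a minimum of 20 cells under that gate, chosen after seeing the data, all 4 kept theirs, but with that minimum and the gate used elsewhere Cd14 did not. There 21 C1q macrophages of young WT had 272.8 CPM, against 268 CPM in classical monocytes. With the mean over cells neither Cd14 nor Tlr2 kept 1 highest class. With cells thinned to 2000 UMIs each, Cd14, Tlr2 and Tlr13 did not keep 1 highest class, and cDC1, with 31, 34 and 38 cells in the treated libraries, were too few to test Tlr3. Tlr3 kept cDC1 there at the minimum of 20 cells.

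**Figure D1:**
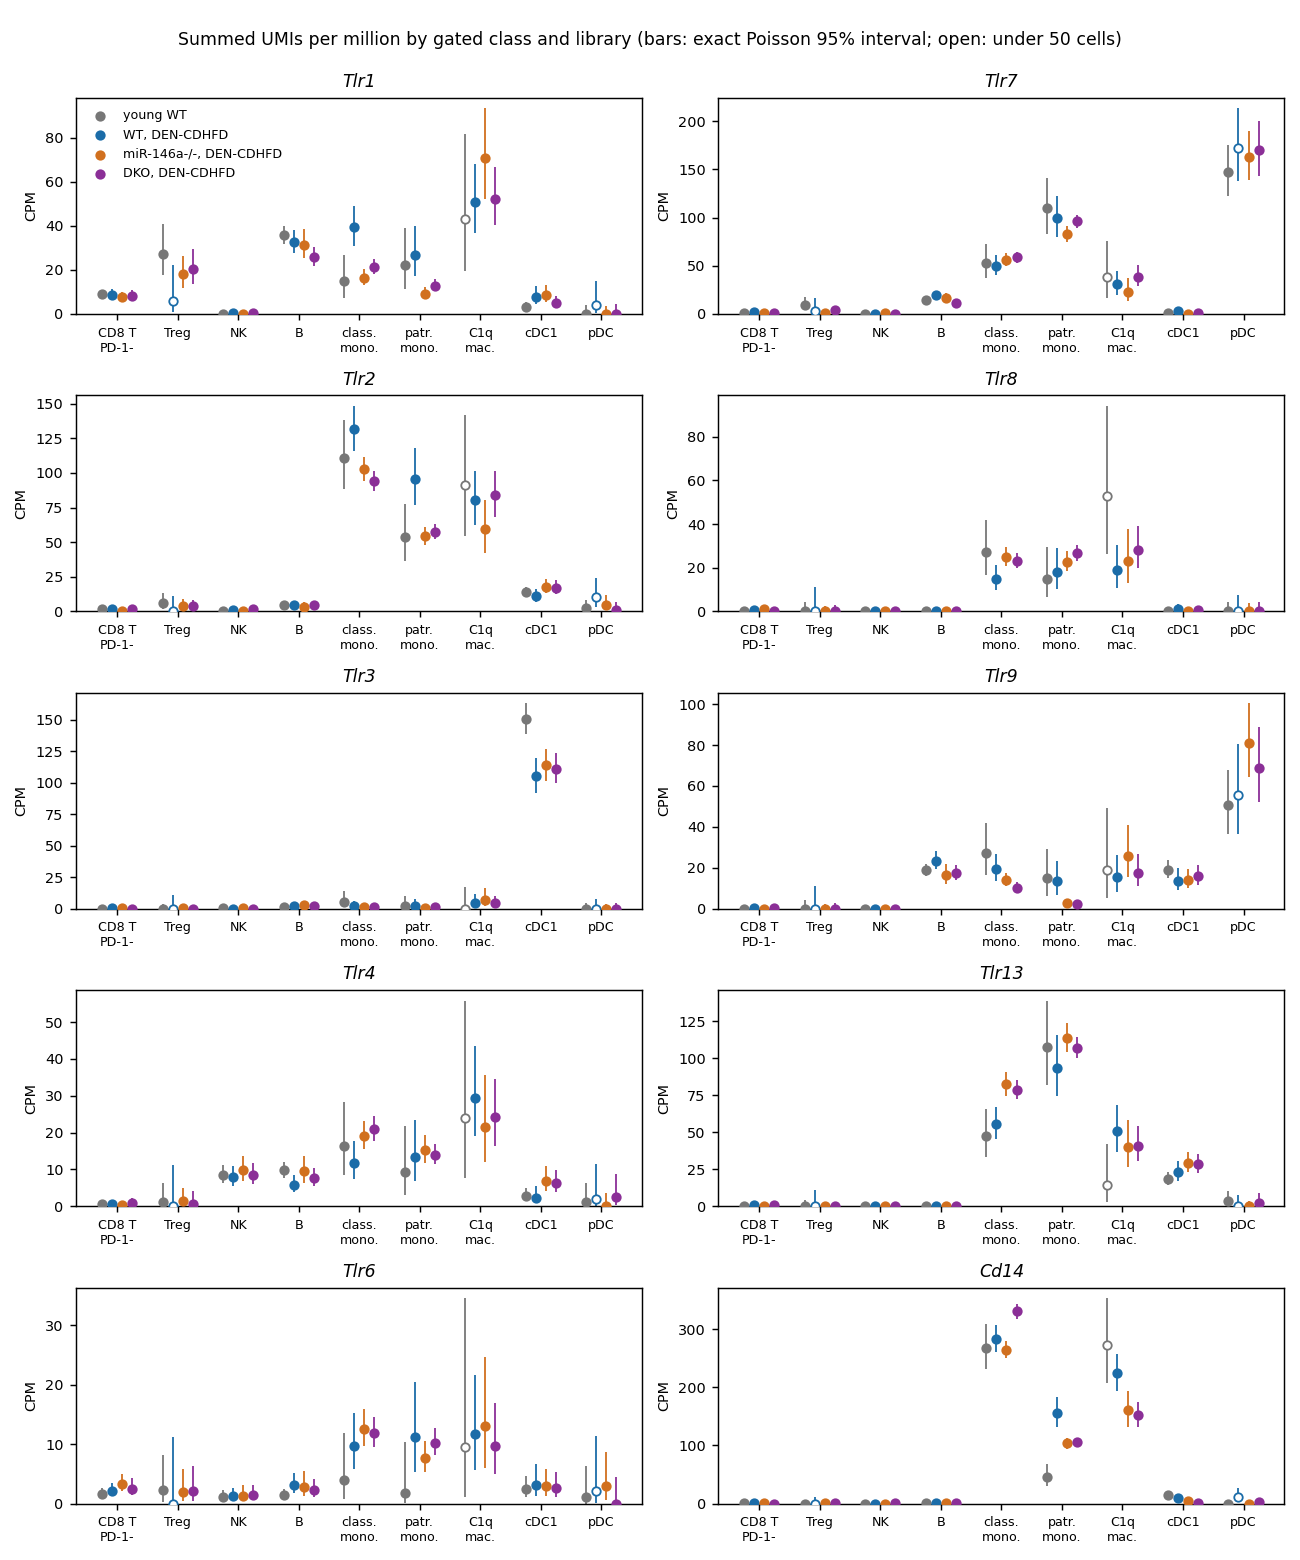
Level of each member (CPM of summed UMIs, 1 panel per gene) in 9 cell classes and 4 libraries, with exact Poisson 95% intervals as bars and open symbols for classes under 50 cells. Tlr3 stands at 105 to 151 CPM in cDC1 of the 4 libraries, and Cd14 at 264 to 330.3 CPM in classical monocytes.

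Cd14 encodes the lipid-binding protein that passes lipopolysaccharide to TLR4. In classical monocytes Cd14 was at 268, 283, 264 and 330.3 CPM, with intervals of 232 to 308, 259.8 to 307, 251 to 279 and 317 to 344. The double knockout was the highest of the 4 libraries, and the other 3 overlapped one another. The share of classical monocytes with a Cd14 UMI was 53.6%, 61.4%, 71.8% and 72.6%, while in T cells it was 0.160%, 0.835%, 0.290% and 0.407%. In patrolling monocytes Cd14 was at 46.4, 156, 104 and 105 CPM, lowest in young WT and highest in treated WT. C1q macrophages had 272.8, 224, 160.2 and 152 CPM, the first from 21 cells with an interval of 207 to 353. In cDC1 Cd14 was at 15.2, 9.67, 4.38 and 2.001 CPM, the last from 6 UMIs. In the same order hepatocyte markers in cDC1 summed to 47.7, 27.2, 22.6 and 11.3 CPM, with 5, 4, 5 and 5 of 5 detected, Alb the most abundant and Serpina1a at 0 in treated WT. Their part in the result was not tested. B cells had at most 0.487 CPM.

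The neutrophil class was small in the WT libraries, with 19, 17, 64 and 71 cells. Its leading genes over the 4 libraries together included those of precursors (Mpo, Elane, Olfm4, Ngp), and also S100a9 and Retnlg. The gate markers Cxcr2 and Mmp9 were at 244 and 44.1 times their level in all other kept cells, so the class is not of precursors only. The class summed to 78617, 54784, 958865 and 1029822 UMIs, so these pooled values come mostly from the knockouts. Cd14 there was at 789, 730.1, 149 and 234 CPM, higher in the 2 WT libraries, which had under 20 cells each, than in the 2 knockout libraries. In both WT libraries it was above the 268 and 283 CPM of classical monocytes. Those neutrophil classes were under the minimum of cells for naming a highest class. The median depth of the class was 3652, 2393, 14324.5 and 12937 UMIs per cell, lower in both WT libraries, and its part in the result was not tested.

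Tlr4 encodes the lipopolysaccharide receptor. In classical monocytes Tlr4 was at 16.3, 11.8, 19.0 and 20.9 CPM, with intervals of 8.40 to 28.4, 7.46 to 17.7, 15.5 to 23.2 and 17.7 to 24.4. Treated WT was the lowest, and it overlapped young WT and the miR-146a-/- library. Patrolling monocytes had 9.28, 13.4, 15.2 and 13.9 CPM and C1q macrophages 23.9, 29.4, 21.6 and 24.2 CPM, the first from 5 UMIs. In no library did the highest class for Tlr4 separate from the next. NK cells, which are lymphocytes, had Tlr4 at 8.52, 7.90, 9.87 and 8.57 CPM, a nearly level value across the 4 groups. CD8 T cells without Pdcd1 had 0.496, 0.719, 0.448 and 0.909 CPM. In all NK and ILC cells together Tlr4 reached 40.0%, 59.0%, 44.1% and 34.6% of its level in classical monocytes.

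Tlr2 encodes the chain that the lipopeptide receptors share. In classical monocytes Tlr2 was at 111, 131, 103 and 94.0 CPM, with intervals of 88.3 to 138, 116 to 149, 94.1 to 112 and 87.2 to 101. Treated WT was the highest, and it did not overlap either knockout library. In patrolling monocytes it was at 53.8, 95.8, 54.1 and 57.4 CPM, again highest in treated WT, with the other 3 close to one another. Type 2 dendritic cells (cDC2), of which only the double knockout had at least 50 cells, had 50.7, 47.0, 46.4 and 50.7 CPM. In cDC1 Tlr2 was at 13.7, 11.0, 17.5 and 17.0 CPM, and in B cells at 4.74, 4.59, 3.50 and 4.46 CPM.

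Tlr1 and Tlr6 encode the partners of TLR2 and are neighbours on chromosome 5, on the same strand. Tlr1 was carried by B cells and T cells besides myeloid cells. In B cells Tlr1 was at 35.8, 32.5, 31.5 and 25.8 CPM, with a UMI in 21.0%, 21.4%, 20.3% and 18.5% of cells. B cells thus kept a like share in all 4 libraries. C1q macrophages had 43.1, 50.6, 70.7 and 52.3 CPM, the first from 21 cells, and were the highest class of the 3 treated libraries. In classical monocytes Tlr1 was at 14.9, 39.4, 16.5 and 21.3 CPM, with intervals of 7.44 to 26.7, 31.1 to 49.2, 13.2 to 20.4 and 18.1 to 24.9. Treated WT stood above the other 3 with no overlap.

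Within T cells, CD8 cells without Pdcd1 had Tlr1 at 8.92, 8.63, 7.77 and 8.00 CPM, nearly the same in all groups. CD8 cells with Pdcd1, the PD-1 gene, had 6.51, 3.45, 2.10 and 5.08 CPM, lowest in the miR-146a-/- library. Regulatory T cells had 27.4, 18.0 and 20.4 CPM in the 3 libraries with at least 50 of them. NK cells had 0.164, 0.416, 0 and 0.214 CPM (0 of 363 cells in the miR-146a-/- library), well below the T cell classes of the same libraries.

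Tlr6 had few UMIs in any class. In classical monocytes Tlr6 was at 4.06, 9.72, 12.5 and 11.9 CPM, the first from 3 UMIs, with intervals for the other 3 of 5.85 to 15.2, 9.64 to 15.9 and 9.51 to 14.6. The 3 treated libraries overlapped. Patrolling monocytes had 1.86, 11.1, 7.60 and 10.2 CPM, and all T cells 1.53, 1.69, 2.25 and 2.38 CPM.

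Among the endosomal receptors, Tlr3 encodes the sensor of double-stranded RNA and was the member most restricted to 1 class. In cDC1, the dendritic cells that cross-present antigen to CD8 T cells, Tlr3 was at 151, 105, 114 and 111 CPM, with intervals of 139 to 163, 92.2 to 120.0, 102 to 127 and 99.7 to 124. Young WT was the highest and did not overlap the 3 treated libraries, which overlapped one another. A Tlr3 UMI was found in 81.4%, 64.9%, 69.0% and 69.0% of cDC1, and the next class had only 5.42, 4.71, 7.21 and 12.7 CPM. Of all 2083 Tlr3 UMIs in kept cells, 71.1% lay in cDC1. Plasmacytoid cells had 0 Tlr3 UMIs in all 4 libraries.

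Tlr3 ranked 7 among the genes that led cDC1, at 68.6 times its level in all other kept cells, and Tlr11, a profilin receptor not among the 10 members, ranked 5 at 77.7 times. Tlr11 in cDC1 was at 106, 61.7, 91.2 and 81.0 CPM. Tlr12, the partner of Tlr11, was at 125, 73.2, 60.6 and 67.0 CPM in cDC1 and at 90.8, 73.9, 61.2 and 80.7 CPM in pDC. Like Tlr3, both were highest in cDC1 of young WT.

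Tlr7 encodes a sensor of single-stranded RNA. In pDC, the main producers of type I interferon, Tlr7 was at 147, 172, 163 and 169.8 CPM, with intervals of 123 to 175, 138 to 214, 139 to 189.8 and 143 to 200.2. All 4 libraries overlapped, treated WT with 41 cells, and a Tlr7 UMI was present in 73.7%, 80.5%, 80.5% and 72.3% of pDC. Patrolling monocytes came next with 109.5, 99.1, 82.8 and 96.0 CPM, and classical monocytes had 52.8, 50.1, 55.9 and 58.6 CPM. B cells had 14.5, 19.6, 16.1 and 11.8 CPM, highest in treated WT. In cDC1 Tlr7 was at 0.745, 3.22, 0.365 and 0.667 CPM, so the dendritic class with the most Tlr3 had almost no Tlr7.

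Tlr8, next to Tlr7 on the X chromosome, encodes a relative of TLR7. It was a myeloid gene in these cells, with 0 UMIs in pDC of all 4 libraries and at most 0.388 CPM in B cells. In classical monocytes Tlr8 was at 27.1, 14.8, 24.8 and 23.0 CPM, with intervals of 16.5 to 41.8, 9.94 to 21.3, 20.7 to 29.5 and 19.7 to 26.8. Treated WT was the lowest, and it overlapped each of the other 3. Patrolling monocytes had 14.8, 17.8, 22.8 and 26.6 CPM, lowest in young WT and highest in the double knockout. The Negr1 group of the double knockout had 48.3 CPM, with an interval of 39.1 to 59.0.

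Tlr9 encodes the sensor of unmethylated CpG DNA. In pDC Tlr9 was at 50.6, 55.4, 81.0 and 68.6 CPM, with intervals of 36.7 to 67.9, 36.5 to 80.6, 64.4 to 100.5 and 52.0 to 88.9. The knockout libraries were higher in value, and all 4 intervals overlapped. B cells had 18.7, 23.4, 16.4 and 17.3 CPM, and cDC1 19.1, 13.8, 14.2 and 16.0 CPM. Classical monocytes had 27.1, 19.4, 14.0 and 10.4 CPM, with young WT the highest and each library below the one before it. In patrolling monocytes Tlr9 was at 14.8, 13.4, 2.61 and 2.53 CPM from 8, 12, 12 and 20 UMIs, with intervals of 6.41 to 29.3, 6.90 to 23.3, 1.35 to 4.55 and 1.54 to 3.91. Both WT libraries lay above both knockout libraries without overlap, on UMI numbers below the minimum of 50 used for ratios. NK cells had 0 Tlr9 UMIs in all 4 libraries.

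Tlr13 encodes a sensor of bacterial ribosomal RNA that people lack. In patrolling monocytes Tlr13 was at 108, 93.5, 114 and 107 CPM, a like level in all 4 libraries. In classical monocytes it was at 47.4, 55.8, 82.5 and 78.7 CPM, with intervals of 33.0 to 65.9, 45.8 to 67.3, 74.9 to 90.7 and 72.4 to 85.3. There the 2 knockout libraries lay above the 2 WT libraries with no overlap. Patrolling monocyte markers in the classical class summed to 390, 373, 435 and 460 CPM, also higher in both knockouts. Its median depth was 12684, 11665, 18704 and 18323 UMIs per cell. The part of these markers and of depth in the Tlr13 result was not tested. In cDC1 Tlr13 was at 18.6, 23.0, 29.6 and 28.3 CPM, also higher in value in the knockouts. B cells held 1 Tlr13 UMI over the 4 libraries and regulatory T cells 0.

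Promoters were available from RefSeq (GRCm38.p6) for 7 of the 10 members, and Tlr4, Tlr7 and Cd14 have no entry. The letters GAGGAA, the core bound by PU.1, a factor of myeloid and B cells, were searched on both strands in 300 bases around each start. They were found for 4 of the 7 members (Tlr1, Tlr8, Tlr9, Tlr13), against 31.3% of 27025 genes. By promoter they were found in 4 of the 9 of these members, against 28.3% of 32851 promoters. A match is a run of letters and not a measured site. The promoters of Tlr3, Tlr9 and Tlr13 are printed since these 3 members had different highest classes (cDC1, pDC in 3 libraries, patrolling monocytes), with any GAGGAA or its reverse complement TTCCTC in capitals: Tlr3 is on the minus strand at chr8:45410331-45410630, Tlr9 on the plus strand at chr9:106222348-106222647 and Tlr13 on the plus strand at chrX:106143025-106143324. Tlr3 has no match, Tlr9 has 2 and Tlr13 has 1.
Tlr3: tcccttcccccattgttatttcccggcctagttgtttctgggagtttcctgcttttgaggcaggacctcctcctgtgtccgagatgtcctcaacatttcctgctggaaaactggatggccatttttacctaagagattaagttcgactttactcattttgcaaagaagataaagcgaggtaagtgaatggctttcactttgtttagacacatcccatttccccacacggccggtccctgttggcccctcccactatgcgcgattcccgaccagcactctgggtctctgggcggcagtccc
Tlr9: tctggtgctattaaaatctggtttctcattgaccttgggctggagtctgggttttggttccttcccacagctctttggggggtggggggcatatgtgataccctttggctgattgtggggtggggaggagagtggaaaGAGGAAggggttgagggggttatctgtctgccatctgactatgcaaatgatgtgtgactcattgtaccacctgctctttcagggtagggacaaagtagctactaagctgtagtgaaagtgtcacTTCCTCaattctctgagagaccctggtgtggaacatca
Tlr13: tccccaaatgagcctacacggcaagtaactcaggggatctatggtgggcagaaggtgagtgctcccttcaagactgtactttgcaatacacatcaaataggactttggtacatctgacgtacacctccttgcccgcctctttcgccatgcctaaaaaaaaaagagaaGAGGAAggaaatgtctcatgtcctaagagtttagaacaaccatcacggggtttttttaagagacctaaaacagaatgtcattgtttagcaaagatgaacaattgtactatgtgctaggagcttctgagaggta

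Free RNA from lysed cells gives UMIs in cells that do not express a gene, so member levels in T cells were set against those in classical monocytes. Lyz2, a monocyte gene, was in T cells at 0.0729%, 0.496%, 0.134% and 0.149% of its level in classical monocytes, highest in treated WT. Cd14 in T cells was at 0.0746%, 0.374%, 0.162% and 0.161% of its level in classical monocytes, close to Lyz2 in each library. Tlr13 was at 0.106%, 0.506%, 0.390% and 0.469%. Cd14 thus had in T cells about the share that Lyz2 leaves there, while Tlr13, from 2 to 9 UMIs a library, was near Lyz2 in the WT libraries and above it in both knockouts.

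Tlr2 in T cells was at 0.653%, 1.37%, 1.25% and 1.61% of its classical monocyte level, above Lyz2 in each library. Tlr4 was at 3.54%, 15.0%, 8.83% and 7.85%, Tlr6 at 37.6%, 17.4%, 18.0% and 20.1%, and Tlr1 at 39.6%, 13.4%, 31.6% and 28.9%. For Tlr1 the share in NK and ILC cells of the same libraries was 1.43%, 0.979%, 0 and 2.50%, far below that in T cells. Tlr1 thus differed between lymphocyte classes, and so did Tlr4, which was higher in NK than in CD8 T cells.

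**Figure D2:**
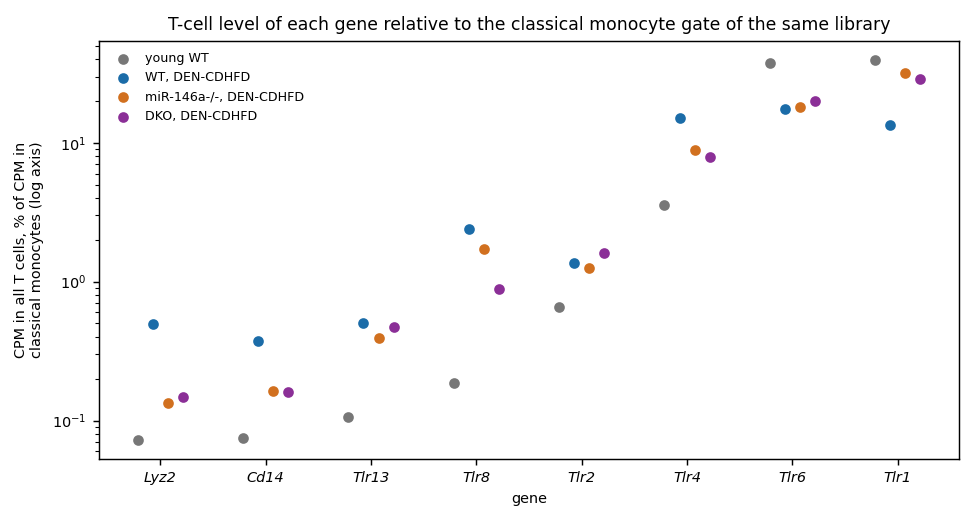
Level in all T cells as a percentage of the level in classical monocytes of the same library (log axis), for Lyz2 and 7 members, 1 point per library. Cd14 lies close to Lyz2 (0.0746% to 0.374% against 0.0729% to 0.496%), and Tlr1 lies at 13.4% to 39.6%.

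The first comparison, treated WT against young WT, asks how age, DEN and diet together go with these genes in mice of 1 genotype. Ratios were read for members with at least 50 UMIs over the pair, and 1.5-fold was the limit for naming a difference. In classical monocytes 1 of 6 members read passed 1.5-fold, against 17.8% of 6187 genes read. Tlr1, at 14.9 CPM in young and 39.4 CPM in treated WT, was 2.60-fold higher (interval 1.40 to 5.52). Treated WT was the high library, as it was for 3 marker lists of other myeloid cells in this class. Mature dendritic cell markers summed to 20.3, 57.3, 18.1 and 25.2 CPM, with 3, 7, 5 and 6 of 7 detected and Il4i1 the most abundant. Markers of pDC summed to 8.13, 85.4, 49.0 and 11.5 CPM, with 1, 5, 5 and 5 of 5 detected. Klk1 was the most abundant of these in treated WT, and Siglech, Klk1, Cox6a2 and Pacsin1 were at 0 in young WT. Neutrophil markers summed to 77.2, 101, 72.9 and 84.9 CPM, with 2, 4, 5 and 7 of 7 detected and Csf3r the most abundant. Other lists were lower in treated than in young WT, with cDC2 markers at 118 CPM in young and 34.3 CPM in treated WT. Markers of cDC1 were at 106 and 74.2 CPM. The part of these lists in the Tlr1 result was not tested.

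Among the other members in classical monocytes, Cd14 was at 1.05-fold (0.895 to 1.25), Tlr2 at 1.18-fold (0.920 to 1.54), Tlr13 at 1.17-fold, Tlr7 at 0.949-fold and Tlr9 at 0.721-fold. The median log2 ratio was 0.15 over the 6 members read and 0.03 over all genes read. Tlr3, Tlr4, Tlr6 and Tlr8 had too few UMIs for a ratio here.

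In patrolling monocytes 2 of 4 members read were higher past 1.5-fold in treated WT, against 9.2% of 4227 genes read that were higher and 16.1% past it in either direction. Cd14 was 3.32-fold higher (2.18 to 5.37), from 46.4 to 156 CPM. Tlr2 was 1.77-fold higher (1.16 to 2.81), from 53.8 to 95.8 CPM. Tlr7 at 0.906-fold and Tlr13 at 0.870-fold were within the limit. The other 6 members had too few UMIs for a ratio in this class.

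Markers of other cells moved with this comparison. In the patrolling class the summed level of 3 erythroid genes was 1.86, 1609, 2.39 and 1.39 CPM, with 1, 3, 3 and 3 of the 3 detected and Hbb-bs the most abundant at 1028 CPM in treated WT. The classical monocyte markers summed in the patrolling class to 157.8, 359.7, 209 and 204.1 CPM, and mature dendritic cell markers to 24.1, 49.0, 20.6 and 33.5 CPM, both highest in treated WT as well. The median depth of the class, at 7084, 9430, 6324 and 5703 UMIs per cell, was also highest there. C1q macrophage markers in the class summed to 7.42, 34.5, 24.8 and 40.5 CPM, with 4, 6, 6 and 7 of 7 detected, lowest in young WT. Markers of cDC1, cDC2 and pDC were instead lower in treated than in young WT. The part of these lists and of depth in the result was not tested. In cDC1, Tlr3 was 0.699-fold (0.598 to 0.815), within the limit, and 1 of 5 members read was past it, against 10.3% of 8278 genes: Cd14 at 0.642-fold (0.369 to 1.06), with the hepatocyte sum in cDC1 at 47.7 and 27.2 CPM. In B cells 1 of 5 was past it, against 6.92% of 9741 genes: Tlr4, at 9.73 CPM in young and 5.84 CPM in treated WT, was 0.603-fold (0.376 to 0.933).

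The second comparison, miR-146a-/- against WT with both treated, asks what goes with loss of the microRNA. In classical monocytes 3 of 9 members read passed 1.5-fold, against 19.2% of 8493 genes read. Tlr1 was lower, at 39.4 CPM in WT and 16.5 CPM in the knockout, or 0.422-fold (0.305 to 0.579). Tlr4 was higher, at 11.8 and 19.0 CPM, or 1.61-fold (1.02 to 2.67), and Tlr8 was higher, at 14.8 and 24.8 CPM, or 1.67-fold (1.11 to 2.60). Of the 2 partners of TLR2, Tlr1 thus stood lower in the knockout, while Tlr6 was within the limit at 1.28-fold.

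Among the other 6 members, Tlr13 was just within the limit at 1.48-fold (1.20 to 1.84). Tlr2 was at 0.781-fold (0.672 to 0.910), Tlr9 at 0.724-fold (0.481 to 1.10), Cd14 at 0.935-fold (0.846 to 1.03) and Tlr7 at 1.12-fold. The median log2 ratio was 0.16 over the 9 members and 0.01 over all genes read. The median depth of classical monocytes was 12684, 11665, 18704 and 18323 UMIs per cell, lower in both WT libraries, and its part in the result was not tested. With cells thinned to 2000 UMIs each, Tlr1, Tlr4 and Tlr8 had too few UMIs to be read, so their ratios were not tested at equal depth. With the mean over cells Tlr4 was within the limit at 1.35-fold, and at 2-fold only Tlr1 passed of the 9 members. Tlr13 passed with TMM factors, at 1.53-fold, and Tlr9 with no UMI of other compartments' lists allowed, at 0.603-fold.

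In patrolling monocytes 3 of 7 members read were lower past 1.5-fold in the miR-146a-/- library, against 10.7% of 7725 genes read that were lower and 22.4% past it in either direction. Tlr1 was at 26.7 CPM in WT and 9.12 CPM in the knockout, or 0.346-fold (0.202 to 0.589). Tlr2 was at 95.8 and 54.1 CPM, or 0.566-fold (0.440 to 0.730). Cd14 was at 156 and 104 CPM, or 0.665-fold (0.549 to 0.808), just past the limit. Treated WT was the high library for all 3, and Tlr2 in the knockout was near its young WT level of 53.8 CPM. Tlr13 at 1.22-fold (0.967 to 1.55), Tlr7 at 0.835-fold, Tlr8 at 1.28-fold and Tlr4 at 1.14-fold were within the limit. The same treated WT library serves in both comparisons, with its erythroid sum of 1609 CPM and its median depth of 9430 UMIs per cell against 6324 in the knockout, and the part of either in the result was not tested.

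Endothelial markers in the patrolling class summed to 72.4, 62.4, 319.8 and 284 CPM, with 2, 3, 3 and 5 of 5 detected. Pecam1, which monocytes also carry, was the most abundant, and Stab2, Kdr and Ptprb were at 0 in young WT. Hepatocyte markers there summed to 52.0, 18.9, 10.4 and 12.3 CPM, highest in young WT. The part of either list in the result was not tested. In C1q macrophages 0 of 4 members read were past the limit, against 17.5% of 4365 genes, with Cd14 at 0.717-fold (0.561 to 0.909). In cDC1 1 of 4 was past it, against 10.8% of genes read, namely Tlr2 at 1.58-fold (0.952 to 2.71). In B cells 1 of 4 was past it, against 10.2% of 8877 genes, namely Tlr4 at 1.60-fold (0.918 to 2.85).

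**Figure D3:**
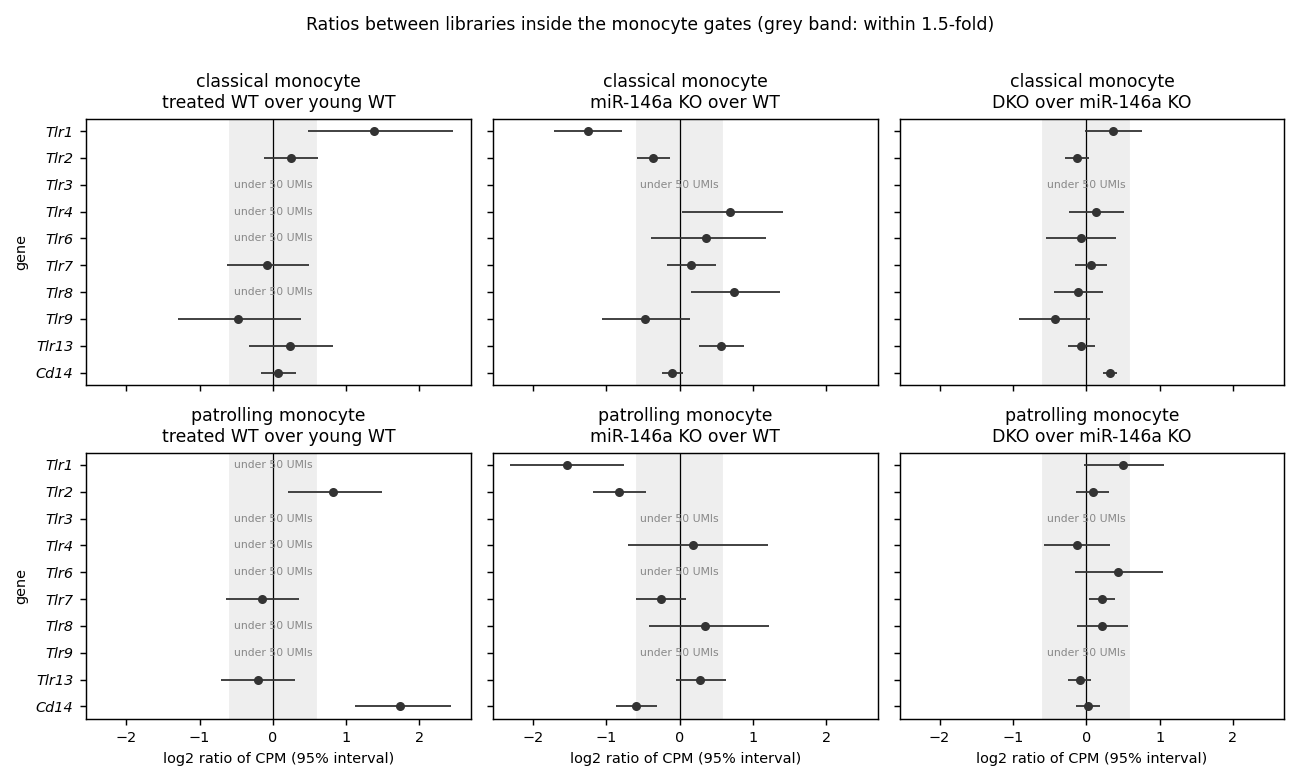
Log2 ratio of each member in classical and patrolling monocytes for 3 comparisons, with 95% counting intervals and a grey band within 1.5-fold. Tlr1 lies at 0.422-fold in classical and 0.346-fold in patrolling monocytes for miR-146a-/- over WT, and all members read for double knockout over miR-146a-/- lie inside the band.

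The third comparison, double knockout against miR-146a-/-, asks what goes with loss of Ccl5 where miR-146a is absent. In classical monocytes 0 of 9 members read passed 1.5-fold, against 4.81% of 9364 genes read. Cd14 was at 1.25-fold (1.17 to 1.34), from 264 to 330.3 CPM. Tlr1 was at 1.29-fold (0.984 to 1.69), and Tlr9, the furthest from level, at 0.741-fold (0.530 to 1.03). With the mean over cells Tlr9 was past the limit, at 0.646-fold. The median log2 ratio was -0.07 over the members and -0.05 over all genes. In patrolling monocytes 0 of 8 members read passed, against 5.98% of 9243 genes, the largest being Tlr1 at 1.41-fold (0.978 to 2.08) and Tlr6 at 1.34-fold (0.896 to 2.06). There Tlr7 was at 1.16-fold (1.02 to 1.32), Tlr2 at 1.06-fold and Cd14 at 1.02-fold. No member read was thus past the limit in either monocyte class, though the intervals of Tlr1 in both classes, of Tlr9 in classical and of Tlr6 in patrolling monocytes run past 1.5-fold. With cells thinned to 2000 UMIs, Cd14 passed in classical monocytes, at a log2 ratio of 0.70.

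Outside the monocytes, double knockout over miR-146a-/- gave 0 of 2 members past the limit in pDC, against 6.86% of 5348 genes, with Tlr7 at 1.04-fold and Tlr9 at 0.849-fold. In C1q macrophages 1 of 6 was past it, against 10.8% of 5036 genes, namely Tlr7 at 1.66-fold (0.934 to 3.16). In neutrophils 2 of 4 were past it, against 11.5% of 4367 genes: Cd14 at 1.57-fold (1.27 to 1.94) and Tlr7 at 1.54-fold (0.913 to 2.69). In cDC1 0 of 4 were past it, against 4.93% of 8099 genes, and in B cells 0 of 4, against 9.1% of 8773 genes.

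In CD8 T cells with Pdcd1, Tlr1 was the 1 member read in each comparison. It was at 0.535-fold in treated over young WT (0.296 to 0.983), against 17.7% of genes past the limit, and at 0.613-fold in miR-146a-/- over WT (0.350 to 1.04), against 12.6%. In double knockout over miR-146a-/- it was at 2.39-fold (1.45 to 4.16), against 7.21% of 10386 genes. The miR-146a-/- library was thus the low one, as the levels of 6.51, 3.45, 2.10 and 5.08 CPM show. In conventional CD4 T cells Tlr1 went the other way in treated over young WT, at 5.94 and 10.1 CPM, or 1.70-fold (0.961 to 2.93). That interval includes no change. The share of all genes past the limit is not given for that class, where the median log2 ratio over 9679 genes read was 0.01. The 3 comparisons share libraries, treated WT being in 2 and miR-146a-/- in 2, so their ratios are not independent of one another.

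Of the 29 other pathway genes, read by the same rules, 4 of 20 in classical monocytes were past 1.5-fold in treated over young WT, all higher, against 17.8% of all genes read in either direction. For miR-146a-/- over WT 9 of 22 were past it, 1 higher and 8 lower, against 19.2% (9.66% lower), and for double knockout over miR-146a-/- 1 of 24 was, against 4.81%. The first and the last of these counts are near the share over all genes. In patrolling monocytes 6 of 17 were past it in treated over young WT, all higher, against 16.1%. For miR-146a-/- over WT 13 of 23 were, 5 higher and 8 lower, against 22.4% (11.7% higher, 10.7% lower), and for double knockout over miR-146a-/- 3 of 24 were, 2 higher and 1 lower, against 5.98%. Of the 8 lower genes for miR-146a-/- over WT in each class, 4 were NF-κB response genes.

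The response genes are the cytokines and feedback inhibitors that receptor signals induce. In classical monocytes 4 of 5 read were lower in the miR-146a-/- library, against 9.66% of 8493 genes read. Tnf was at 44.7, 77.8, 17.3 and 19.3 CPM, or 0.224-fold in miR-146a-/- over WT. Il1b was at 773, 671, 181 and 202 CPM, or 0.271-fold. Treated WT had the most Tnf, and both knockouts had the least of either cytokine. Cxcl2, a neutrophil chemokine, was at 129, 349, 113 and 188 CPM, or 0.323-fold, and Tnfaip3, which encodes the NF-κB inhibitor A20, was at 111, 127, 44.2 and 49.4 CPM, or 0.349-fold. Nfkbia, at 490.3, 708, 479 and 537 CPM, was within the limit. For treated over young WT 2 of the 5 were higher, against 17.8% of all genes in either direction. The median depth of this class was 11665 UMIs per cell in treated WT and 18704 in the miR-146a-/- library. Hepatocyte markers there summed to 40.6, 24.6, 10.4 and 10.8 CPM in the 4 libraries. From treated WT to miR-146a-/-, mature dendritic cell markers went from 57.3 to 18.1 CPM, pDC markers from 85.4 to 49.0 and neutrophil markers from 101 to 72.9. Patrolling monocyte markers rose from 373 to 435 CPM and cDC2 markers from 34.3 to 43.1. The part of depth and of these lists in the result was not tested.

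In patrolling monocytes the same 4 genes, of 6 read, were lower in the miR-146a-/- library, against 10.7% of all genes read. For treated over young WT 4 of 5 (Tnf, Cxcl2, Tnfaip3 and Nfkbia) were higher there, against 9.2%. From treated WT to the knockout Tnf went from 64.6 to 26.7 CPM, Il1b from 700.4 to 267 CPM, Cxcl2 from 293 to 26.1 CPM and Tnfaip3 from 168 to 73.4 CPM. Cxcl2 there was at 7.42, 293, 26.1 and 61.2 CPM, so treated WT was high and young WT the lowest. Il10, an anti-inflammatory cytokine, went the other way, at 42.7, 5.57, 43.9 and 22.9 CPM, or 7.66-fold in miR-146a-/- over WT (3.32 to 24.5). The low library for Il10 was treated WT, with 5 UMIs. Treated WT was also high in this class for erythroid genes (1609 CPM against 2.39 in miR-146a-/-), classical monocyte markers (359.7 against 209 CPM) and median depth (9430 against 6324 UMIs per cell). Their part in the result was not tested. Response genes were also lower for miR-146a-/- over WT outside the monocytes. They were 3 of 5 read in CD8 T cells with Pdcd1, against 12.6% of all genes in either direction. In C1q macrophages they were 3 of 5 (17.5%), in cDC1 2 of 3 (10.8%) and in B cells 1 of 3 (10.2%). They were 3 of 4 in CD8 T cells without Pdcd1, 2 of 3 in NK cells and 3 of 3 in type 1 innate lymphoid cells. The median log2 ratio over all genes was 0.01 in each of these classes. In conventional CD4 T cells 1 of 4 was higher and 1 lower, with a median of -0.02 over all genes. The share of all genes past the limit is not given for these lymphocyte classes, so their counts cannot be set against it. Ifnb1, the gene of interferon beta, had 0 UMIs in classical monocytes, patrolling monocytes and pDC of all 4 libraries.

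Of 9 adaptors and kinases, 1 was higher and 1 lower past the limit in classical monocytes for miR-146a-/- over WT, near the 19.2% of all genes read. Irak2, which carries 2 of the printed seed matches, was at 153, 178, 86.7 and 105 CPM, or 0.487-fold (0.423 to 0.562). Ticam2, an adaptor of TLR4, was at 20.3, 14.3, 26.5 and 28.0 CPM, or 1.84-fold. Irak1, with 2 seed matches, was at 54.2, 56.3, 56.3 and 54.0 CPM, or 1.00-fold (0.801 to 1.26). Traf6, with 4 seed matches, was at 35.2, 32.7, 28.8 and 27.1 CPM. None of Irak1, Irak2 and Traf6 was past 1.5-fold higher in the miR-146a-/- library than in treated WT in this class. These are RNA levels from 1 library per group, with median depths of 11665 UMIs per cell in treated WT and 18704 in the knockout. The part of depth in these ratios was not tested.

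Myd88, the shared adaptor, was at 90.7, 129.9, 150.3 and 134 CPM in classical monocytes, and Irak4 was at 73.1, 67.0, 69.8 and 65.2 CPM. In patrolling monocytes 4 of the 9 adaptors and kinases were higher and 2 lower for miR-146a-/- over WT, against 11.7% and 10.7% of all genes read. Irak3, a negative regulator of the IRAK complex, was at 65.0, 65.7, 136 and 118 CPM, or 2.07-fold, higher in both knockouts than in both WT libraries. Tirap, with 2 seed matches, went from 5.57 to 18.0 CPM, or 3.17-fold (1.33 to 10.2). Its treated WT level rests on as few UMIs as that of Il10 in the same class. Among the adaptors and kinases with a match, Tirap thus stood higher, Irak2 and Traf6 lower, and Irak1 within the limit. Ticam1 went from 7.79 to 14.8 CPM and Ticam2 from 17.8 to 31.7 CPM. Irak2, from 174 to 78.0 CPM, and Traf6, from 52.3 to 34.5 CPM, were lower.

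Of 6 co-receptors and chaperones, 1 was lower in classical and 2 in patrolling monocytes for miR-146a-/- over WT, against 9.66% and 10.7% of all genes read. Cd36, a scavenger receptor that works with TLR2, was at 16.3, 54.7, 10.8 and 10.5 CPM in classical monocytes, high only in treated WT among the 4. In patrolling monocytes Cd36 was at 251, 265, 105 and 125 CPM, low in both knockouts. Ly86, which encodes the partner of CD180, was at 163, 294, 79.1 and 120.4 CPM in patrolling monocytes, or 0.269-fold. Ly96, which encodes MD-2, was at 27.1, 36.8, 31.5 and 34.9 CPM in classical monocytes and was not past the limit.

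Unc93b1, the transporter of the endosomal receptors, was at 1053, 1059, 1188 and 1151 CPM in pDC, 631, 473, 529 and 538 CPM in classical monocytes and 564, 645, 677 and 596 CPM in B cells. It was highest in pDC, the class with the most Tlr7. Of the 4 other receptors, 1 was read in classical monocytes for miR-146a-/- over WT and was lower, against 9.66% of all genes read. This was Cd180, from 98.2 to 61.9 CPM, or 0.631-fold. Tlr5 stood at or below 5.19 CPM in that class. Of the 2 brakes, 1 was read there and was also lower, against the same 9.66%. This was Tollip, with 1 seed match, from 20.5 to 13.5 CPM, or 0.660-fold.

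**Figure D4:**
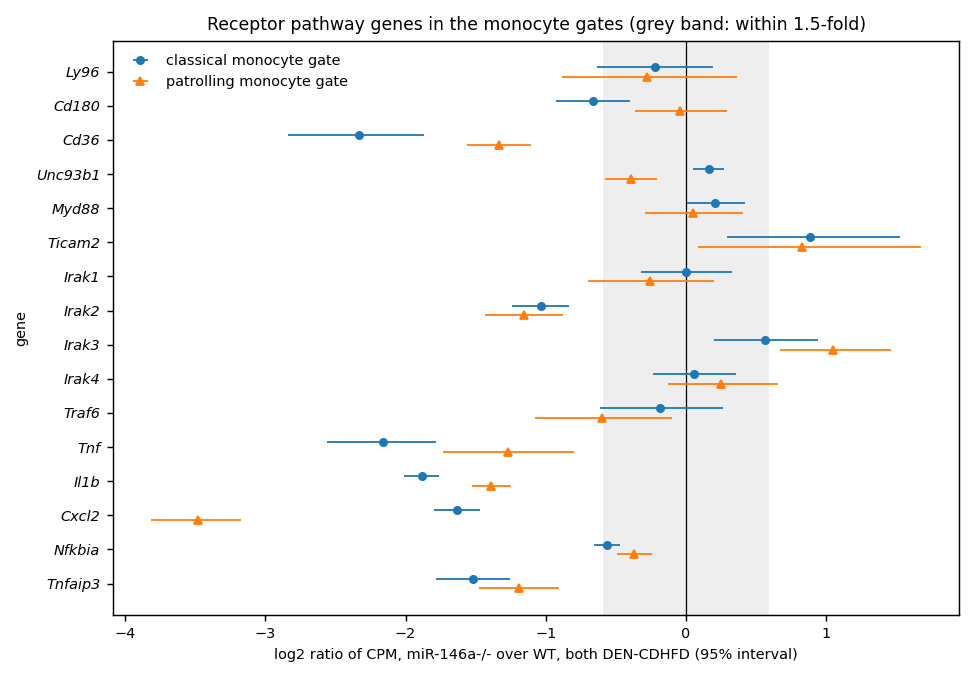
Log2 ratio for miR-146a-/- over WT of 16 pathway genes in classical and patrolling monocytes, with 95% counting intervals and a grey band within 1.5-fold. Tnf (0.224-fold in the classical class), Il1b, Cxcl2 and Tnfaip3 lie below the band in both classes, and Irak1 lies at 1.00-fold in the classical class.

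Over all kept cells several members gave larger differences than within 1 class in some comparisons, and smaller or opposite ones in others. Cd14 over all kept cells was at 11.4, 54.0, 50.1 and 67.4 CPM, or 4.74-fold in treated over young WT (4.43 to 5.09), against 1.05-fold in classical and 3.32-fold in patrolling monocytes. Tlr2 was at 7.09, 22.5, 25.5 and 28.7 CPM, or 3.18-fold against 1.18-fold in classical and 1.77-fold in patrolling monocytes. Young WT was the low library for both genes in the pooled cells. Tlr13 was at 4.86, 12.5, 25.9 and 31.0 CPM, or 2.07-fold in miR-146a-/- over WT (1.92 to 2.23), against 1.48-fold in classical and 1.22-fold in patrolling monocytes. In that comparison pooled Tlr2 went the other way, at 1.13-fold (1.06 to 1.20) against 0.781-fold in classical and 0.566-fold in patrolling monocytes. Pooled Tlr1 was at 0.808-fold, against 0.422-fold and 0.346-fold. Pooled Cd14 was at 0.926-fold, against 0.935-fold and 0.665-fold.

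Tlr7 over all kept cells was at 9.69, 15.1, 24.1 and 28.5 CPM, or 1.59-fold in miR-146a-/- over WT, against 1.12-fold in classical and 0.835-fold in patrolling monocytes. Tlr8 was at 1.24, 3.84, 6.32 and 10.5 CPM, or 1.67-fold in double knockout over miR-146a-/- (1.495 to 1.86), against 0.929-fold and 1.16-fold. Tlr3 was at 9.64, 4.33, 4.97 and 5.32 CPM, or 0.449-fold in treated over young WT (0.395 to 0.508), against 0.699-fold in cDC1. Tlr1 was at 10.4, 14.1, 11.4 and 15.7 CPM and Tlr9 at 6.31, 7.26, 8.15 and 7.48 CPM, the 2 members with the flattest pooled levels. The share of monocyte classes among kept cells differed between libraries as given above, and pooled levels carry it.

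**Figure D5:**
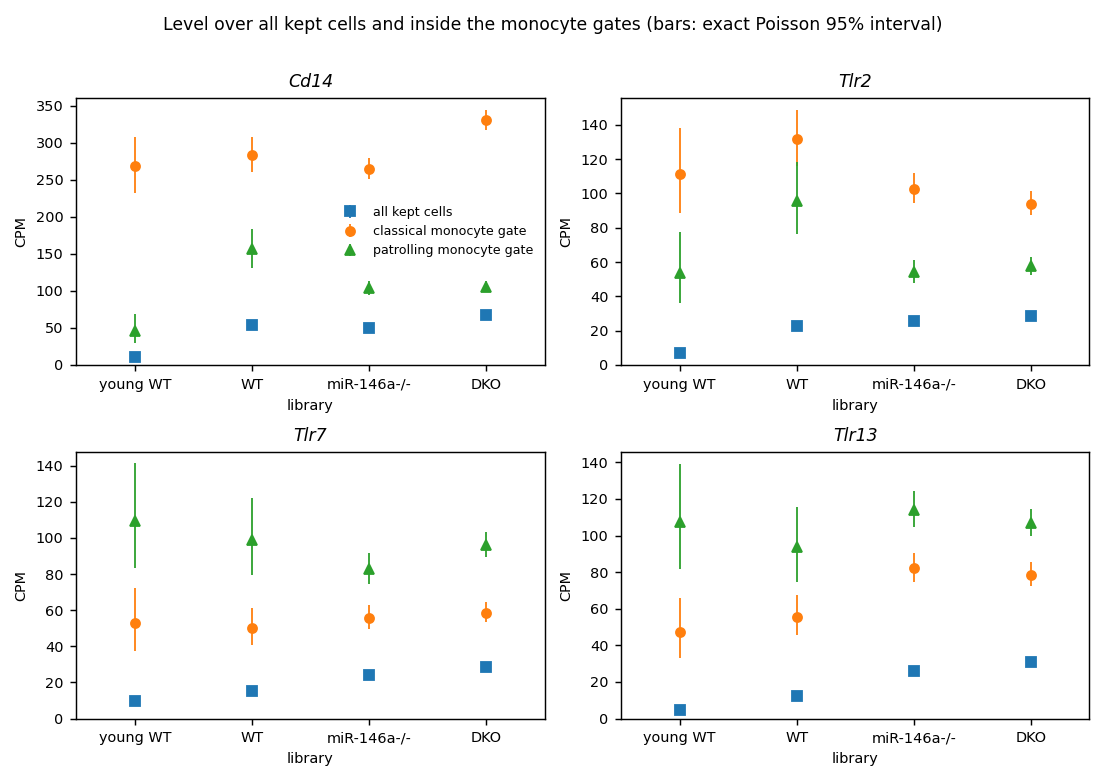
Level (CPM, exact Poisson 95% intervals) of Cd14, Tlr2, Tlr7 and Tlr13 in all kept cells, classical monocytes and patrolling monocytes of the 4 libraries. Cd14 goes from 11.4 to 54.0 CPM between young and treated WT in all kept cells and from 268 to 283 CPM in classical monocytes.

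Cells with markers of 2 compartments were left out of the classes, and they were 6.70%, 15.7%, 13.04% and 13.9% of kept cells. They held 38.2% of the Cd14 UMIs over the 4 libraries, 35.0% of those of Tlr8, 32.9% of Tlr2 and 11.7% of Tlr3. Classical monocytes held 28.6% of the Cd14 UMIs, patrolling monocytes 23.2% of those of Tlr13, and B cells 16.0% of those of Tlr9 and 15.0% of those of Tlr1.

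The members' patterns were also compared with all genes by Pearson correlation over 53 class-by-library points, which share libraries and depth and are not independent. Tlr13 was most like Gpr141 (r = 0.984), Treml4 (0.981, itself a marker of the patrolling class) and Wdfy3 (0.979). Cd14 was most like Mefv (0.971), which encodes pyrin, Lyz2 (0.969) and Hacd4 (0.968). Tlr2 was most like Ticam2 (0.962), the TLR4 adaptor, and Cd302 (0.952). Tlr9 was most like Unc93b1 (0.957), its transporter, and Ly86 (0.954). Tlr8 was most like Sirpb1c (0.961), and Tlr3 was most like Fam149a (0.940) and Tlr11 (0.926).

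Tlr7 was most like Rhbdf2 (0.925) and Tlr6 most like Ubtd1 (0.872). Tlr4 was most like Itgam (0.836), the gene of CD11b, and Tlr1 was most like Samhd1 (0.770), the lowest top value of the 10. Between members, the most alike were Tlr2 and Cd14 (0.936) and Tlr2 and Tlr13 (0.933). Tlr7 and Tlr9 had 0.709, Tlr2 and Tlr6 0.824, and Tlr1 and Tlr2 0.618. Tlr3 and Tlr7 had 0.00549, the cDC1 and pDC receptors having no shared high class.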

How the data were processed

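The values are raw UMI counts deposited by the authors, made with Cell Ranger and the mm10 reference. The labels give version 7.0.1 and the study's methods an earlier one; which of them made the counts, and so if intronic reads entered, is not known. Kept cells had from 600 to 6000 detected features, and their mitochondrial share was 5% or less. Cells were gated into classes by summed raw UMIs of marker genes; no doublet caller was run, and cells with markers of 2 compartments were left out of the classes. UMIs were summed per class and library and divided by the total UMIs of that class and library. Ratios used a prior of 0.5 counts and an exact conditional binomial 95% interval, were read with at least 50 UMIs over the pair and at least 50 cells per class, and were named past 1.5-fold. Shares of cells have Clopper-Pearson intervals. All 10 members were described whatever their value; the members and gene lists were chosen with earlier results of these data known. Likeness was ranked by Pearson correlation over classes of at least 50 cells in a library. Coordinates, UTRs and Ensembl identifiers are from GENCODE on GRCm38. Tools were Python 3.11.15, numpy 2.4.6, scipy 1.17.1, pandas 2.3.3, matplotlib 3.10.9, R 4.3.3 and edgeR 4.0.16, the last for TMM factors in 1 alternative.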

Additional observations from a re-analysis of the deposited data

How the results depend on the processing

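No paired analysis was possible because each group has 1 library; the results come from no test. Alternatives were other limits for cells, gates, depth, scaling, prior, UMI minimum and fold, and where a value moved the cause was not tested. Members with the same highest class in all 4 libraries were 4. They were 2 with the mean over cells (Tlr3 and Tlr13), 2 with no UMI of the other compartments' lists (the same 2, with young WT classical monocytes at 40 cells, under the minimum) and 1 with cells thinned to 2000 UMIs (Tlr7, not among the 4, with cDC1 under the minimum in 3 libraries). At least 20 cells per class was chosen after seeing the data. It gave 6 (Tlr1, Tlr7 and Tlr9 in, Cd14 out), 6 with no UMI of other lists (Tlr7 and Tlr9 in) and 2 thinned (Tlr3 and Tlr7). Members past 1.5-fold in classical monocytes for treated over young WT were 1; they were 0 thinned (1 member read, Cd14, and Tlr1 under the UMI minimum), 2 with the mean over cells and 4 with no UMI minimum. For miR-146a-/- over WT they were 3, with 0 thinned (4 read, with Tlr1, Tlr4 and Tlr8 under the minimum) and 1 at 2-fold. No UMI of other lists gave 4 (Tlr9 in, lower at 0.603-fold), and TMM gave 4 (Tlr13 in, higher at 1.53-fold). No minimum gave 4, and the mean over cells 2 (without Tlr4). For double knockout over miR-146a-/- they were 0, with 1 thinned (Cd14) and 1 with the mean over cells (Tlr9). Alternatives were run for the classical monocyte ratios and the highest classes only; no called ratio read there turned direction.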

Other observations

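Il10 in CD8 T cells with Pdcd1 was at 3.98, 142, 16.3 and 13.2 CPM in young WT, treated WT, miR-146a-/- and double knockout, far higher in treated WT than in the other 3. Sigirr, a brake on receptor signals, was carried by NK cells at 45.7, 44.3, 53.5 and 51.0 CPM, nearly level across the 4 libraries, and by classical monocytes at 8.13, 2.56, 5.58 and 5.12 CPM.

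Cd180 in B cells, a receptor related to TLR4 that works with Ly86, was at 143, 154, 123 and 85.4 CPM, lowest in the double knockout, and in pDC at 367, 413, 390.0 and 390.1 CPM.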
